A study of Mus musculus with 12 samples.

Results

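Translation initiation and elongation factors were taken as the genes whose probe sets carry a single symbol starting with Eif or Eef followed by a digit, and each gene was represented by the probe set that was brightest on average across the 12 arrays. This gave 52 genes out of 12393 measured, with 118 probe sets among them. The muscle was the white part of the gastrocnemius of male C57BL/6 mice aged 17 to 18 weeks and fasted overnight, with 1 MOE430A array per mouse. The 6 transgenic mice (replicates 1 to 6, generation F5) carried the R225Q mutant form of the γ3 subunit of AMPK, the cellular energy-sensing kinase, and the 6 wild-type littermates of the same generation (replicates 7 to 12) did not. The promoter that drives the transgene and the number of transgenic lines are not given in the sources used here. The comparison asks which of these transcripts differ between the genotypes after fasting. Eif2s1, which encodes the phosphorylated α subunit of eIF2, was not analysed here.

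Protein synthesis begins when initiation factors (eIFs) bring the initiator transfer RNA, the small ribosomal subunit and the capped end of the messenger RNA together, and continues when elongation factors (eEFs) deliver aminoacyl transfer RNAs and move the ribosome along. The process uses much of a muscle fibre's energy and slows in fasting. AMPK is known to restrain it through phosphorylation, by activating the kinase that inhibits eEF2 and by inhibiting mTORC1, which otherwise phosphorylates the 4E-binding proteins. The arrays measure transcript levels and carry no information on phosphorylation.

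Promoter sequence is shown for members on which the results turn: the members with an unadjusted limma p under 0.05 that have an entry in the RefSeq promoter table, and the 2 isoforms of eEF1A. Each sequence runs from 80 bases before to 20 bases after the most upstream annotated start in GRCm38.p6, written 5′ to 3′ on the gene's strand, and capitals mark matches to any of 5 short motifs on either strand. The motifs were CCGGAAGT (bound by ETS factors), GGGCGG (the GC box), TATAAA (the TATA box), CACGTG (the E-box) and TGACGTCA (the cyclic AMP response element).
Eef2 (chr10:81176551-81176650, + strand): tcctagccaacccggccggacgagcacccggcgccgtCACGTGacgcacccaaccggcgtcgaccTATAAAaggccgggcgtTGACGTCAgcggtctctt
Eif4b (chr15:102073693-102073792, + strand): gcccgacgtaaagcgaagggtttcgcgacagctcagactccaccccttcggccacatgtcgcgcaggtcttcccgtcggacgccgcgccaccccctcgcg
Eef1b2 (chr1:63176751-63176850, + strand): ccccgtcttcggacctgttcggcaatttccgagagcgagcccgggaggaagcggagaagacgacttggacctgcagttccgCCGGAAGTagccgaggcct
Eif4e2 (chr1:87213831-87213930, + strand): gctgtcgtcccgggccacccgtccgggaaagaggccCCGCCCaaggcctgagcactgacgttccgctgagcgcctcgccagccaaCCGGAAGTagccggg
Eif2d (chr1:131153127-131153226, + strand): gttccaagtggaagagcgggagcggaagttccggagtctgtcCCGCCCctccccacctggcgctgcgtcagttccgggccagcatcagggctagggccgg
Eif4enif1 (chr11:3202273-3202372, + strand): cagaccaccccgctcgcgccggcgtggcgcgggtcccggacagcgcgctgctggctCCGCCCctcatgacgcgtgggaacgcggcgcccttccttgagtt
Eef1a1 (chr9:78481705-78481804, - strand): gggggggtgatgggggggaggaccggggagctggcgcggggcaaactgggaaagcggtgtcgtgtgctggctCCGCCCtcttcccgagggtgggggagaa
Eef1a2 (chr2:181156996-181157095, - strand): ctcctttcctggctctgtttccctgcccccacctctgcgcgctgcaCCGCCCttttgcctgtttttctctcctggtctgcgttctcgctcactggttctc

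Of the 52 members, 42 had an entry in that table. The 100-base window held a GC box in 23 of these 42 (54.8%, against 24.9% of all 27025 promoters), an ETS motif in 5 (11.9% against 2.68%), an E-box in 5 (11.9% against 3.27%), a TATA box in 2 (4.76% against 5.62%) and a cyclic AMP response element in 1, Eef2 (2.38% against 1.23%). All 27025 promoters include those of non-coding genes, and the annotated start can lie away from the start used in muscle. The windows of Eef2, Eif4b and Eef1b2, 3 of the members with the lowest fold changes, share none of the motifs, and that of Eif4b holds none. The ETS motif stands in the window of Eef1b2, which was lower in transgenic muscle, and of Eif4e2, which was higher, with neither difference past the threshold.

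No member passed limma's test adjusted over all probe sets, where 0.0888% of genes and 0.0707% of probe sets did, and the smallest adjusted p among the 52 was 0.592. The log2 fold change, transgenic over wild type, was positive for 22 and negative for 30 members, with a median of -0.0199 against -0.00133 over all genes, of which 49.4% were positive. It lay within 0.2 of 0 for 51 members (98.1%, against 97.5% of all genes), and for the same number the 95% interval stayed within 0.5 of 0 (98.6% of all genes), shares close to those over all genes, with Eif4ebp1 as the exception in each case. The central 90% of the members ran from -0.175 to 0.168, a wider span than the -0.121 to 0.125 of all genes. An unadjusted p under 0.05 was found for 7 members (13.5%), where the share over all genes was 4.91%. Of these 7 members 5 were lower (2.28% over all genes) and 2 were higher (2.63% over all genes) in transgenic muscle. The members were bright, with 46 of 52 above the median probe set against 7391 of 12393 genes, so the background differs in level. With probe sets below the median left out, the share under 0.05 was 15.2% of members and 6.71% of probe sets. On the probe set that represents the gene, the genotypes overlapped in each of the 52 members, while 0.533% of all genes showed no overlap. Transgenic replicate 2 held the lowest transgenic level for 18 members and the highest for 1. Without it, 26 of the 52 fold changes were positive and their median was 0.000188. The lean to negative values was nevertheless present on hybridization day 2 alone, where that array is absent. There 18 of the 52 were positive and the median was -0.0259.

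**Figure D1:**
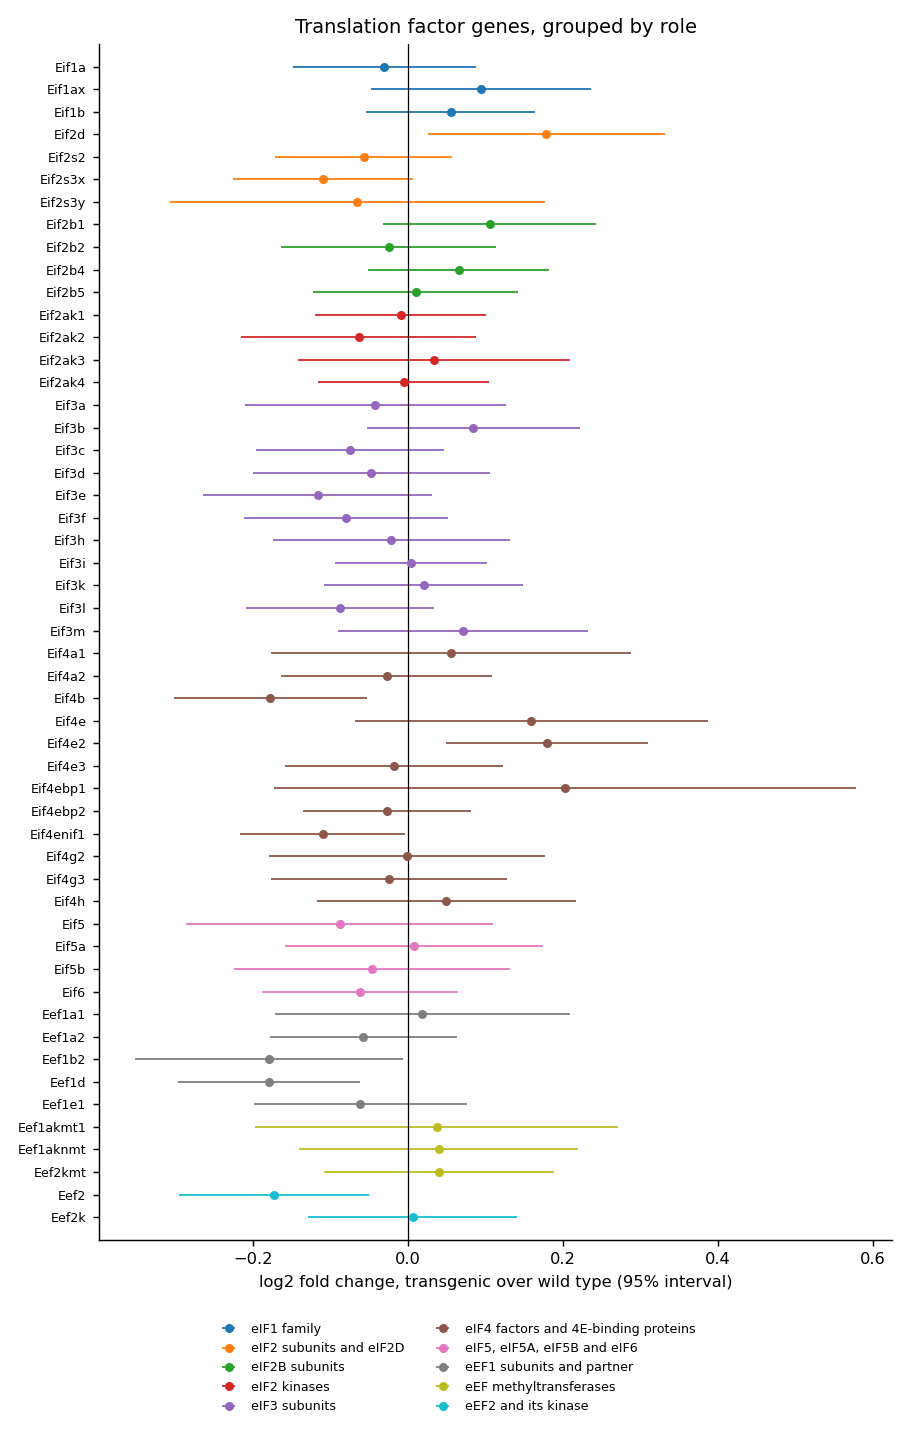
Log2 fold change of each translation factor gene, transgenic over wild type, with its 95% interval from limma, in 52 rows grouped and coloured by role (n = 6 arrays per genotype). The points crowd around 0, with Eef1b2, Eef1d, Eef2 and Eif4b near -0.18, Eif2d and Eif4e2 near 0.18, and the widest interval at Eif4ebp1.

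The arrays came from 2 chip lots, and this bears on several members. Transgenic replicate 1 and wild-type replicate 7 were of the smaller lot, and they had the lowest mean correlation with the other arrays, 0.9902 and 0.9888, and the largest excess of 3′ over 5′ probe sets for the Gapdh control, 0.1848 and 0.1844 on the log2 scale against -0.0944 to -0.00174 elsewhere. Transgenic replicate 1 held the highest or lowest level of its genotype for 53.8% of members and 50.9% of all genes, and wild-type replicate 7 for 59.6% and 60.2%. Fold changes are therefore also given for the 10 arrays of the larger lot. There 6 members had an unadjusted limma p under 0.05 (6.56% over all genes), 5 of them among the 7 above, none passed after adjustment (0.105% over all genes), and the median was -0.032. The sign differed from that of all arrays for 7 members. Hybridization fell on 2 days with 3 arrays of each genotype on each, and the members' median was -0.0172 on day 1 and -0.0259 on day 2. Both arrays of the smaller lot were hybridized on day 1, and all arrays of day 2 were of the larger lot. A comparison of the days is therefore not separate from chip lot.

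**Figure D2:**
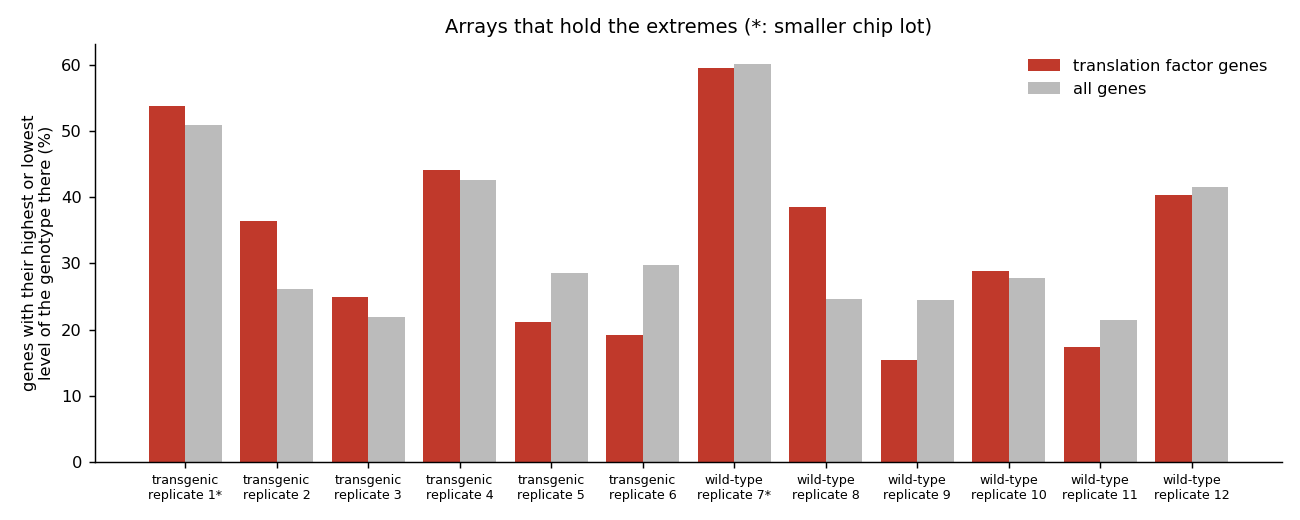
Share of genes that have their highest or lowest level of the genotype on a given array, in percent, for translation factor genes and for all genes. The bars are tallest on wild-type replicate 7 and transgenic replicate 1, the 2 arrays of the smaller chip lot, and reach about the same height for translation factor genes and all genes there.

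The tissue label was checked against marker genes. The 10 measured fast fibre markers lay at or above percentile 99.6 of all probe sets, with list means of 13.47 to 13.59 log2 units in transgenic and 13.42 to 13.54 in wild-type arrays. Slow fibre markers were lower in transgenic muscle for 6 of 7 members with a median log2 fold change of -0.509, and the range of their list mean was 7.36 to 8.30 against 7.34 to 9.004. All 6 endothelial markers were higher, with a median of 0.189 and a range of 7.60 to 7.84 against 7.495 to 7.66. All 3 measured adipocyte markers were lower, with a median of -0.516 and a range of 6.62 to 7.64 against 7.42 to 8.23. Schwann markers were higher for 2 of 2 (median 0.16) and fibroblast and tendon markers for 1 of 5 (median -0.137). Macrophage markers were higher for 2 of 4 (median 0.0294), and blood and male markers for 1 of 2 each (medians 0.0741 and 0.023). The 2 measured male markers lay at percentiles 15 and 32.8. No marker passed the test in limma, and RMA values do not show which markers are absent. The part of these shifts in the members' values was not tested, and in whole muscle fewer cells of a type and less RNA per cell cannot be told apart.

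Among the elongation factors, the nucleotide exchange subunits of eEF1 and eEF2 itself had the lowest fold changes, and neither eEF1A isoform was near them. Eef1d encodes eEF1Bδ, an exchange subunit that recharges eEF1A with GTP. Its level ran from 9.41 to 9.59 log2 units in transgenic arrays (median 9.47) and from 9.57 to 9.83 in wild-type arrays (median 9.65). Transgenic replicate 4 alone lay above the lowest wild-type arrays, replicates 11 and 12, and the highest value of all was that of wild-type replicate 7. The log2 fold change was -0.18 ± 0.06 (SE), or -11.7% on the linear scale, with a limma adjusted p of 0.592, and it was -0.14 ± 0.05 in the larger chip lot. All 6 transgenic arrays were below the wild-type mean. The 2 other probe sets of Eef1d were at -0.19 ± 0.08 and -0.04 ± 0.08.

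Eef1b2, the other exchange subunit measured, ran from 9.16 to 9.66 in transgenic (median 9.28) and from 9.37 to 9.63 in wild-type arrays (median 9.52). The highest value of all 12 arrays was in transgenic replicate 4, while 4 transgenic arrays lay below the lowest wild-type array, replicate 7. Transgenic over wild type, the difference was -0.18 ± 0.08, with a limma adjusted p of 0.999, and it was -0.18 in the larger lot, where replicate 4 remained included. Without that array it was -0.24. Eef1b2 has 1 probe set.

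Eef2, the factor that moves the ribosome by a codon, ran from 11.76 to 11.97 in transgenic (median 11.82) and from 11.91 to 12.14 in wild-type arrays (median 11.98). Transgenic replicates 5 and 6 were inside the wild-type range, and the other 4 were below it. Eef2 had a log2 fold change of -0.17 ± 0.06, or -11.3%, with a limma adjusted p of 0.691, all 6 transgenic arrays being below the wild-type mean. It was -0.23 on day 1, -0.12 on day 2 and -0.14 ± 0.06 in the larger chip lot. Eef2k, the calcium-dependent kinase that inhibits eEF2, was at 0.01 ± 0.06 (limma adjusted p = 0.999), with a transgenic range of 7.82 to 8.16 (median 7.98) around a wild-type range of 7.90 to 8.04 (median 7.98). The 95% interval of the Eef2k difference was -0.13 to 0.14.

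Eef1a2, the eEF1A isoform of adult muscle and neurons, and Eef1a1, the widely expressed isoform, deliver aminoacyl transfer RNAs to the ribosome. Eef1a2 ran from 12.74 to 13.003 in transgenic (median 12.84) and from 12.83 to 13.05 in wild-type arrays (median 12.88), and the highest value of each genotype was on the array of the smaller lot. Its log2 fold change was -0.06 ± 0.06 (limma adjusted p = 0.999). Eef1a1 ran from 10.59 to 10.86 in transgenic (median 10.70) and from 10.27 to 10.87 in wild-type arrays (median 10.76), with its lowest value in wild-type replicate 7. Its log2 fold change was 0.02 ± 0.09 (limma adjusted p = 0.999) and -0.04 ± 0.06 in the larger lot, and it was also negative without wild-type replicate 7 alone, at -0.06, or transgenic replicate 6 alone, at -0.01. Eef1e1, a component of the complex of aminoacyl transfer RNA synthetases, was at -0.06 ± 0.06. The genes of 3 methyltransferases that modify the factors, Eef1akmt1, Eef1aknmt and Eef2kmt, were at 0.04 each, with SEs of 0.11, 0.08 and 0.07. Eef1aknmt and Eef2kmt were dimmer than the median probe set, at percentiles 16.9 and 38.9.

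**Figure D3:**
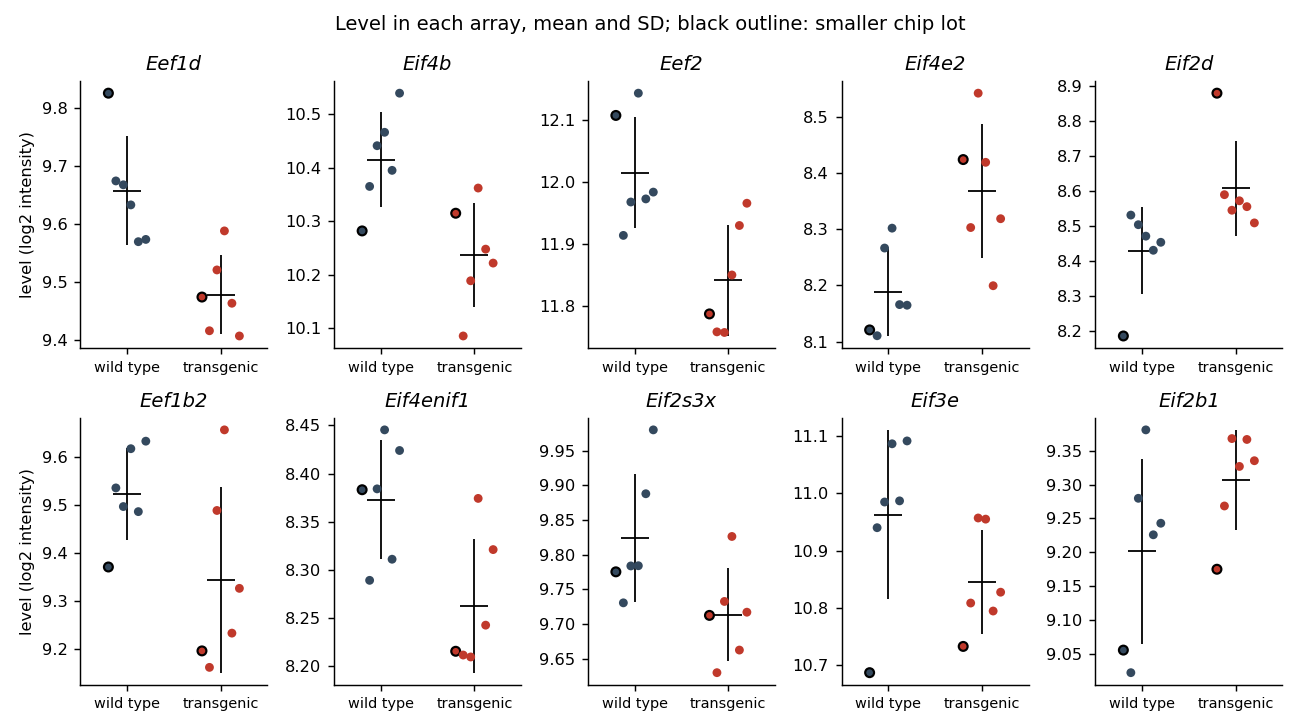
Level of the 10 members with the smallest p in each array, in log2 intensity, with the mean and SD of each genotype (n = 6) and the 2 arrays of the smaller chip lot outlined in black. The genotypes overlap in every panel, by transgenic replicate 4 in Eef1d and by wild-type replicate 7 in Eif4b, and in Eif2d the outlined arrays are the highest and the lowest of all 12.

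Among the 12 eIF4 factors and 4E-binding proteins, which bring the ribosome to the cap, Eif4b and Eif4enif1 were lower and Eif4e2 higher at an unadjusted p under 0.05, and none passed after adjustment. Eif4b encodes the cofactor that stimulates the eIF4A helicase. It ran from 10.09 to 10.36 in transgenic (median 10.23) and from 10.28 to 10.54 in wild-type arrays (median 10.42). The overlap came from wild-type replicate 7, since transgenic replicate 4 at 10.362 was just below wild-type replicate 8 at 10.365, the next lowest. The log2 fold change was -0.18 ± 0.06, or -11.6%, with a limma adjusted p of 0.686, and all 6 transgenic arrays lay below the wild-type mean. In the larger lot it was -0.22 ± 0.06, on day 1 it was -0.17 and on day 2 it was -0.19. The 2 other probe sets of Eif4b were at -0.27 ± 0.07 and -0.11 ± 0.08, so that all 3 were negative.

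Eif4e2 encodes 4EHP, a cap-binding protein that does not bind the eIF4G scaffold and represses translation. It ran from 8.20 to 8.54 in transgenic (median 8.37) and from 8.11 to 8.30 in wild-type arrays (median 8.17). Transgenic replicate 5 was within the wild-type range and transgenic replicate 2, at 8.303, was just above its upper end of 8.302. The log2 fold change was 0.18 ± 0.06, or 13.2%, with a limma adjusted p of 0.708, all 6 transgenic arrays being above the wild-type mean, and it was 0.15 ± 0.07 in the larger lot. Its 4 probe sets disagreed. The dimmest one ran from 6.494 to 6.982 in transgenic and from 6.194 to 6.492 in wild-type arrays without overlap, at 0.40 ± 0.09 (limma adjusted p = 0.286), and the remaining 2 were at 0.07 ± 0.09 and -0.05 ± 0.07. Among the 118 probe sets of the members, 2 showed no overlap of the genotypes (1.69%, against 0.504% over all probe sets), this one and a probe set of Eif3e.

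Eif4e, which encodes the main cap-binding protein, ran from 10.02 to 10.27 in transgenic (median 10.22) and from 9.45 to 10.18 in wild-type arrays (median 10.11). Wild-type replicate 7 stood apart at 9.446, with the next wild-type array at 10.06. The difference of 0.16 ± 0.11 (limma adjusted p = 0.999) was 0.04 without that array and 0.08 ± 0.05 in the larger lot, and the 2 other probe sets were at -0.02 ± 0.07 and -0.01 ± 0.06. Eif4enif1, which encodes the eIF4E transporter 4E-T, was at -0.11 ± 0.05 (limma adjusted p = 0.999), with a transgenic range of 8.21 to 8.37 (median 8.23) and a wild-type range of 8.29 to 8.45 (median 8.38). Transgenic replicates 4 and 6 lay within the wild-type range and the other 4 transgenic arrays below it.

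Eif4ebp1, which encodes the 4E-binding protein that holds eIF4E away from the scaffold, varied most from mouse to mouse. It ran from 9.48 to 10.68 in transgenic (median 10.18) and from 9.48 to 10.21 in wild-type arrays (median 10.07), and its SD within genotypes was 0.373, against a median of 0.111 over the members and 0.12 over all genes. The lowest value of each genotype was on the array of the smaller lot, and transgenic replicates 4, 5 and 3 exceeded every wild-type array. Its mean difference was 0.20 ± 0.18 (limma adjusted p = 0.999) with a 95% interval of -0.17 to 0.58, and it was 0.24 ± 0.14 in the larger lot. It was 0.09 without transgenic replicate 4, 0.11 without wild-type replicate 7 and 0.33 without transgenic replicate 1. The 2 other probe sets of Eif4ebp1 were at 0.06 ± 0.17 and 0.07 ± 0.08, and the mean over its 3 probe sets was at 0.11. Eif4a1, which encodes the helicase that unwinds the start of the messenger, also had its lowest value of each genotype on the smaller-lot arrays, 9.90 in transgenic replicate 1 and 9.85 in wild-type replicate 7. Its highest values were 10.46 in transgenic replicate 4 and 10.49 in wild-type replicate 10, the same arrays as for Eif4ebp1. Its log2 fold change was 0.06 ± 0.11.

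The other members of this group lay between -0.03 and 0.05. Eif4a2, the second helicase, was at -0.03 ± 0.06 and Eif4h, a cofactor related to eIF4B, at 0.05 ± 0.08. Eif4g2 and Eif4g3, of the family of scaffold proteins, were at -0.0015 ± 0.08 and -0.02 ± 0.07, Eif4e3, a relative of eIF4E, at -0.02 ± 0.07 and Eif4ebp2 at -0.03 ± 0.05. The second probe set of Eif4e3 was at -0.12 ± 0.05 (limma adjusted p = 0.999), with 6 of 6 transgenic arrays below the wild-type mean. The 5 probe sets of Eif4ebp2 ranged from -0.12 to 0.11.

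**Figure D4:**
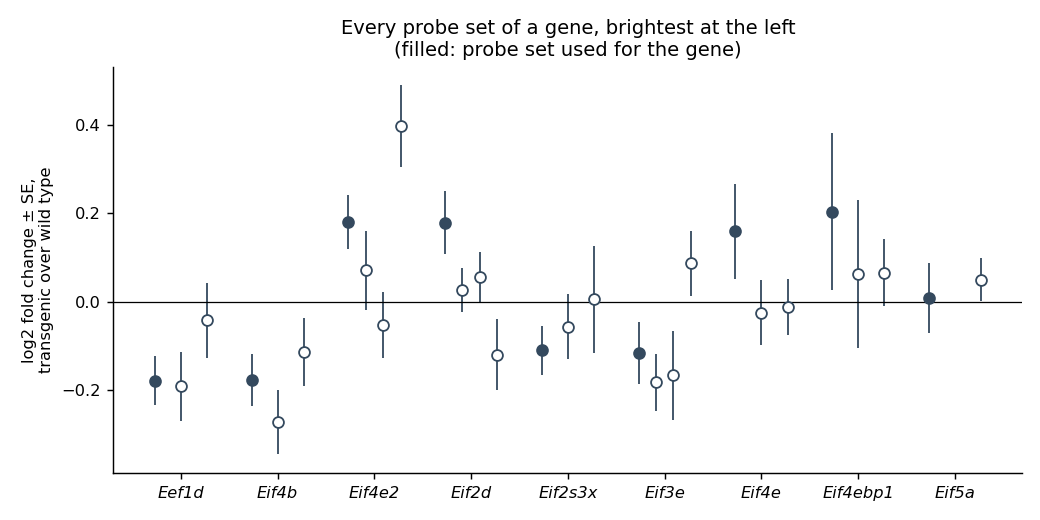
Log2 fold change with SE, transgenic over wild type, of every probe set of the 9 described members that have several, from the brightest at the left to the dimmest at the right, filled for the one that represents the gene (n = 6 arrays per genotype). All probe sets of Eif4b and Eef1d lie below 0, while those of Eif4e2, Eif2d, Eif3e, Eif4e and Eif2s3x lie on both sides, the highest of Eif2s3x being at 0.005.

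The eIF2 group, which carries the initiator transfer RNA, showed 1 member at an unadjusted p under 0.05. Eif2d encodes eIF2D, which can place transfer RNA on the ribosome without GTP and acts in recycling. It ran from 8.51 to 8.88 in transgenic (median 8.56) and from 8.19 to 8.53 in wild-type arrays (median 8.46). Both extremes over all 12 arrays came from the smaller lot, the high one from transgenic replicate 1 and the low one from wild-type replicate 7. The difference of 0.18 ± 0.07 (limma adjusted p = 0.888), with 6 of 6 transgenic arrays above the wild-type mean, was 0.08 ± 0.04 without them. Its other 3 probe sets were at 0.03 ± 0.05, 0.05 ± 0.06 and -0.12 ± 0.08.

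Eif2s3x, the X-linked gene of the γ subunit, ran from 9.63 to 9.83 in transgenic (median 9.72) and from 9.73 to 9.98 in wild-type arrays (median 9.78). Its log2 fold change was -0.11 ± 0.05 (limma adjusted p = 0.999), 5 of 6 transgenic arrays being below the wild-type mean, and its other probe sets were at -0.06 ± 0.07 and 0.005 ± 0.12. Eif2s3y, the Y-linked copy, was at -0.07 ± 0.11 and Eif2s2, the β subunit, at -0.06 ± 0.05, with all 6 probe sets of Eif2s2 negative, down to -0.07. The probe set of Eif2s3y was dim, at percentile 23.7 of all probe sets.

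eIF2B is the exchange factor that recycles eIF2 and the point at which phosphorylated eIF2 blocks initiation. Eif2b1, its α subunit, ran from 9.18 to 9.37 in transgenic (median 9.33) and from 9.02 to 9.38 in wild-type arrays (median 9.24), at 0.11 ± 0.06 (limma adjusted p = 0.999). Transgenic replicate 1 was the lowest of its genotype, and the highest value of all was in wild-type replicate 10. Eif2b4 was at 0.07 ± 0.05, Eif2b5, the catalytic subunit, at 0.01 ± 0.06 and Eif2b2 at -0.03 ± 0.07. The 4 kinases that phosphorylate eIF2 under different stresses had no member at an unadjusted p under 0.05: Eif2ak1, the haem-regulated kinase, was at -0.01 ± 0.05, Eif2ak2, which senses double-stranded RNA, at -0.06 ± 0.07, Eif2ak3, the PERK kinase of the endoplasmic reticulum, at 0.03 ± 0.08 and Eif2ak4, the amino acid sensor GCN2, at -0.01 ± 0.05. Of these 4 genes only Eif2ak1 was brighter than the median probe set.

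The 11 measured subunits of eIF3, the large scaffold on the small ribosomal subunit, had a median log2 fold change of -0.0423, with 4 positive and 7 negative values and none at an unadjusted p under 0.05. Eif3e was the lowest, with a transgenic range of 10.73 to 10.96 (median 10.82) and a wild-type range of 10.69 to 11.09 (median 10.99). The lowest of all its values was in wild-type replicate 7, and the lowest transgenic value in replicate 1. Eif3e was at a log2 fold change of -0.12 ± 0.07 (limma adjusted p = 0.999) and -0.15 ± 0.05 in the larger lot, where its unadjusted p was the one in the group under 0.05. Its second probe set, at -0.18 ± 0.06 (limma adjusted p = 0.761), did not overlap between the genotypes. The ranges nevertheless met to the second decimal, with 10.18 to 10.50 in transgenic and 10.50 to 10.73 in wild-type arrays. The third probe set was at -0.17 ± 0.10 and the dimmest at 0.09 ± 0.07. The other 10 subunits lay between -0.09 for Eif3l and 0.08 for Eif3b. Eif3i, at 0.003 ± 0.05, varied least of all members within genotypes, with an SD of 0.0497.

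The eIF1 genes, whose products keep the scanning ribosome open, were at 0.09 ± 0.07 for Eif1ax, 0.05 ± 0.05 for Eif1b and -0.03 ± 0.06 for Eif1a. Eif5a, which encodes the hypusine-carrying factor that helps ribosomes through difficult peptide bonds, ran from 11.47 to 11.91 in transgenic (median 11.83) and from 11.53 to 11.90 in wild-type arrays (median 11.80). Its lowest value in each genotype was on the smaller-lot array, and its log2 fold change was 0.01 ± 0.08 (limma adjusted p = 0.999; 95% interval -0.16 to 0.17). Eif5, the GTPase-activating partner of eIF2, was at -0.09 ± 0.09, and its 4 probe sets were all negative, between -0.19 and -0.07. Eif5b, which joins the ribosomal subunits, was at -0.05 ± 0.08 and Eif6, which keeps them apart, at -0.06 ± 0.06. For 8 members the probe set used has a suffix by which Affymetrix marks probes shared between transcripts (Eif1a, Eif3m, Eif4g2, Eif4h and Eif5a) or open to cross-hybridization (Eif2s3x, Eif3c and Eif4ebp1).

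**Figure D5:**
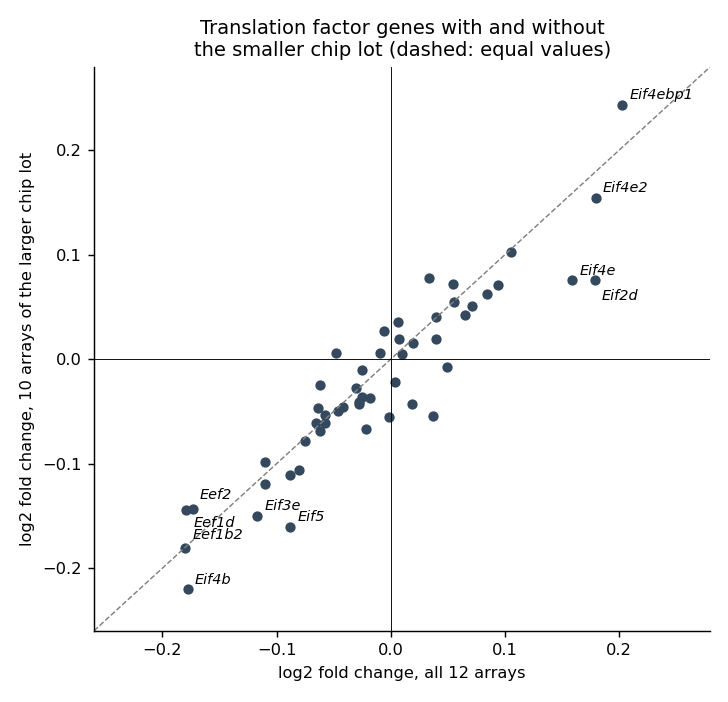
Log2 fold change of the 52 translation factor genes, transgenic over wild type, over all 12 arrays (horizontal axis) and over the 10 arrays of the larger chip lot (vertical axis), with a dashed line at equal values. Eif2d and Eif4e move from 0.18 and 0.16 to 0.08, while Eef1b2 stays at -0.18 and Eif4b goes from -0.18 to -0.22.

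Regulators and partners of the translation factors were read from the same comparison, as a list of 54 genes of which 48 were measured. It covers mTORC1 and its inhibitors, eIF4E kinases, poly(A)-binding proteins, termination factors, the integrated stress response, the enzymes that make hypusine and diphthamide, and mitochondrial translation factors. None passed the test in limma (0.0888% over all genes), 4 had an unadjusted p under 0.05 (8.33%, against 4.91% over all genes), 2 higher and 2 lower, and 30 of the 48 fold changes were positive with a median of 0.0211. That count of 4 was 1 (2.08%) without transgenic replicate 5 or 6 or wild-type replicate 7 or 10. The list's median was 0.0396 on day 1, -0.0224 on day 2 and 0.00766 in the larger lot, so its sign turned between the days. Dnajc3, which encodes an inhibitor of eIF2 kinases, was at -0.21 ± 0.09 (limma adjusted p = 0.911), and Mtif2, the mitochondrial initiation factor, was at 0.23 ± 0.10 (limma adjusted p = 0.982) and 0.14 in the larger lot. Ddit4l, an inhibitor of mTORC1 signalling, was at -0.28 ± 0.12 and Mknk2, a kinase of eIF4E, at 0.15 ± 0.07, each with a limma adjusted p of 0.999. Ddit4, a stress-induced inhibitor of mTORC1 that was named after its values were seen, had the highest fold change of the list at 0.51 ± 0.53, but it was at -0.38 on day 1 and 1.39 on day 2, and between 0.17 and 0.82 on leaving out 1 array.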

How the data were processed

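The deposited table holds 1 linear intensity for every probe set in each of 12 arrays, and the submitters' processing notes name RMA without a version. The deposited settings text of each array, classed as other, gave chip lot and hybridization day and run. Runs were inferred by splitting each day at 1 fixed hybridization time, which gave 4 runs of 3 arrays. Each run held both genotypes in unequal numbers. The log2 of the deposited intensity was taken with no pseudocount. Of 22690 probe sets, 64 controls were set aside and 22626 tested. Of these 20380 carried 1 symbol in the platform table, 691 several and 1555 none.

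Sample titles gave the genotypes, and limma 3.58.1 (R 4.3.3) tested their difference two-sided with moderated variances and no covariate. P-values were adjusted by Benjamini-Hochberg across every tested probe set, with 0.05 as the threshold. Levels are log2 intensities, and levels of different probe sets are not comparable. The median SE of a log2 fold change was 0.0689, and the number of arrays limits the precision. On simulated data for this comparison with 22626 probe sets, 36 of 67 changes of 0.3 were recovered, 59 of 67 of 0.5 and 66 of 66 of 1, with 6 false calls among 167. The simulated probe sets varied independently, with no chip lot or day. With 167 calls there against 16 in the data, the unadjusted p needed to pass was less strict. The recovered shares can therefore be too high for these arrays.

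Of the probe sets with several symbols, 6 include a member and were not used. The members and lists were chosen with earlier results of these data known. Named in full were the 10 members with the smallest p, any past the threshold or without overlap, and Eef1a1, Eef1a2, Eef2, Eef2k, Eif4e, Eif4ebp1 and Eif5a (the rule also lists Eif2s1, not analysed here). Of the regulators, those past the threshold and the 4 with the smallest p were named. P-values cover the spread between mice. Alternatives tried were normalization, a filter on dim probe sets, variance model, batch blocks, chip lot, choice of probe set, an exact permutation test and leaving out each array.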

Additional observations from a re-analysis of the deposited data

Results flagged for a closer look

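Among 104 groups of 6 arrays (52 members in 2 genotypes), 11 held an array far from the other 5. Chance gives about 1 in 20 groups for normally distributed values, and the share over all genes was not computed. The count was therefore not read as particular to these members. Of the 11, 8 were arrays of the smaller chip lot. Its 2 arrays held the highest or lowest level of their genotype for 50.9% and 60.2% of all genes. In wild-type replicate 7 of that lot, Eif4e was at 9.446 log2 units (next lowest 10.06), Eif2d at 8.187 (8.431), Eif3e at 10.69 (10.94) and Eif5a at 11.53 (11.78). In transgenic replicate 1 of that lot, Eif2d was at 8.878 (next highest 8.589), Eif3i at 10.39 (10.29), Eif4e3 at 9.305 (9.105) and Eif5a at 11.47 (next lowest 11.75). In arrays of the larger lot, Eif5 was at 9.664 in transgenic replicate 2 (next lowest 9.976), Eif2b4 at 8.852 in wild-type replicate 8 (8.985) and Eif1b at 8.424 in wild-type replicate 12 (next highest 8.351).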

How the results depend on the processing

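Under every alternative run, 0 translation factor genes passed limma's adjusted threshold, and so did 0 regulators or partners, for which the other choices of probe set were not run. At an unadjusted p under 0.05 there were 7 and 4 over all arrays, and 9 (17.3%) and 4 after a second quantile normalization. Centring arrays on their median gave 6 and 3, an intensity trend 6 and 4, and run as a block 5 and 1. On day 1 alone there were 3 and 0, and on day 2 alone 3 and 3. Leaving out 1 array gave 5 to 8 and 1 to 4. Of all probe sets, 4.63% were under 0.05 over all arrays and 5.43% after the quantile normalization. That share was 4.18% with the run block, 4.14% on day 1 and 3.9% on day 2. The 4 regulators became 2 without transgenic replicate 4 or wild-type replicate 8, 9 or 11. The exact permutation test over 924 regroupings cannot reach a lower p than 0.00216, and no probe set passed it after adjustment. The count of all probe sets called, 16, was 6 with hybridization run as a block, 1 on day 1 alone and 2 on day 2 alone, and between 5 and 18 on leaving out 1 array. It was at most 10 without transgenic replicate 2, 3, 4, 5 or 6 or without wild-type replicate 8, 9 or 11. Apart from the run block, these settings test fewer arrays. The members' median of -0.0199 ranged from -0.0268 to 0.000188 on leaving out 1 array, the positive value being without transgenic replicate 2. Of the 16 members described in full, 12 kept their sign in every alternative, while Eif5a, Eef2k, Eef1a1 and Eif4e did not. Eif5a was at -0.000148 after a second quantile normalization, at -0.0297 on day 2 alone and between -0.0421 and 0.0694 on leaving out 1 array. Eef2k was at -0.00239 with run as a block, at -0.0359 on day 1 alone and between -0.0295 and 0.0371 on leaving out 1 array. Eef1a1 was at -0.0431 on day 2 alone, at -0.0427 without the smaller chip lot and between -0.0647 and 0.0561 on leaving out 1 array. Eif4e was at -0.0121 on its probe set with the smallest spread. The cause of these sign changes was not tested. No paired analysis was possible, because the replicate numbers of the genotypes do not coincide and the sample labels used here give no litter. Litter was therefore not taken into account.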
